A study of Homo sapiens with 12 samples.

Results

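The genes described here encode 8 human histone variants whose transcripts carry poly(A) tails: H2AJ, H2AX, H2AZ1, H2AZ2, MACROH2A1, H1-10, H3-3A and H3-3B. They were chosen by gene symbol, current or older, from the platform annotation of the value table, and 13 of its 47319 probes belong to them. Those 8 genes stand among 20045 measured genes. The arrays carried RNA of KMS-11, a long-established line of human myeloma cells whose translocation puts FGFR3 and NSD2 next to the immunoglobulin heavy chain enhancers. All cells were first starved in 1% FBS for 24 h. The groups were NSC12 for 6 h, DMSO for 6 h, NSC12 for 12 h and DMSO for 12 h, with 3 arrays each. NSC12, a small molecule that is held to bind and trap extracellular fibroblast growth factors, was given at 6 µM, and DMSO is its solvent. KMS-11 is 1 line, so other myelomas are not represented, and the labels do not say whether replicates were separate cultures: p-values measure the spread between these arrays, which may be technical.

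Most histone genes are replication-dependent: they are transcribed in S phase and their messages end in a stem-loop without a poly(A) tail. Variant genes stand outside these clusters, carry ordinary polyadenylated messages and supply histones throughout the cell cycle; H2AX can end in either way. H2AX is phosphorylated beside DNA breaks, H2A.Z (from H2AZ1 and H2AZ2) is placed at promoters by the SRCAP and p400 remodellers, and macroH2A, a long H2A with a macro domain, marks silenced chromatin. H3-3A and H3-3B encode one and the same protein, H3.3, which HIRA brings to active genes and DAXX with ATRX to repeats and telomeres. H1-10 encodes a linker histone, and H2AJ an H2A protein that differs from canonical H2A in few residues.

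The promoters of the 4 variants with the largest changes at 12 h by their brightest probes are shown because these genes went in opposite directions; the least bright probe of H3-3A also changed more than H1-10. Each line gives the 250 bases before the transcription start, 5′ to 3′ on the gene's strand, from RefSeq promoters of GRCh38.p14. CCAAT boxes (CCAAT or, on the other strand, ATTGG) and the TATA box letters TATAAA are in capitals; the windows are chr12:14774155-14774404 (plus strand) for H2AJ, chr3:129316287-129316536 (minus) for H1-10, chr11:119095466-119095715 (minus) for H2AX and chr17:75779780-75780029 (minus) for H3-3B.
H2AJ: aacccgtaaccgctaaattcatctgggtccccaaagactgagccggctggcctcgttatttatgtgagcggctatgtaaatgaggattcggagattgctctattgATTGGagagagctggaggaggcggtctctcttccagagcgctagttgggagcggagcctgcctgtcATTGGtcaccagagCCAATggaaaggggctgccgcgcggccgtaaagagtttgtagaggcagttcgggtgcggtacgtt
H1-10: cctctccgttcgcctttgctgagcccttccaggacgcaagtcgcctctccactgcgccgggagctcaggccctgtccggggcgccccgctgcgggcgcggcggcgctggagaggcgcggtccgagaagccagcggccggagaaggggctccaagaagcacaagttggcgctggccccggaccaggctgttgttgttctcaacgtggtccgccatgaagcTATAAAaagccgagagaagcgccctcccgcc
H2AX: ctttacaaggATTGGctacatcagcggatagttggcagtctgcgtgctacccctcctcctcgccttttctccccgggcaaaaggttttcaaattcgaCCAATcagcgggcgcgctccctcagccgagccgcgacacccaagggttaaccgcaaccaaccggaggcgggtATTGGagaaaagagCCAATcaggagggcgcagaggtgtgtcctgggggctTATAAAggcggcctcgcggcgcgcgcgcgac
H3-3B: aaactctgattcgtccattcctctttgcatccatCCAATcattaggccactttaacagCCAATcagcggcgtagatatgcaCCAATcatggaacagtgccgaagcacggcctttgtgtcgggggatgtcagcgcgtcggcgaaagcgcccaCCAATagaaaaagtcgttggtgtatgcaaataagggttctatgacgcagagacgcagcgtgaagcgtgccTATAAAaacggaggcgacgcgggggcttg
H2AJ held 3 CCAAT boxes, whose first bases lie 145, 79 and 65 bases before the start, and no TATAAA. H2AX held 4 CCAAT boxes, at 240, 153, 81 and 67 bases, and TATAAA at 31. H3-3B held 4, at 216, 192, 169 and 99, and TATAAA at 29. H1-10 held none and TATAAA at 31. Among 35116 RefSeq promoters of this length, both strands searched, 32.0% held at least 1 CCAAT, 2.93% at least 3 and 0.874% at least 4, and 10.7% held TATAAA. All 8 variants had a promoter in the table, 12 in all. H2AZ2 held 4 CCAAT boxes and H2AZ1 3, the 4 promoters of H3-3A 0 or 1 each, and the pair of MACROH2A1 0 and 2. H2AZ1 also held TATAAA, at 31 bases, and the promoters of H2AZ2, H3-3A and MACROH2A1 did not. GAANNTTC, the core of a heat shock element, was found in H2AZ1 alone of the 8 (5.78% of all promoters) and TGACGT, the core of a cAMP response element, in none (7.10%). A match is a description of letters, not a site. Of the variants called higher, H2AJ held CCAAT boxes and H1-10 none, while H2AX, H3-3B and H2AZ1, called lower, held 3 or 4 each. Any link between these letters and the direction of change was not tested.

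Across the series, the mean deposited intensity of an array lay between 347 and 634; it averaged 428 ± 61.6 in NSC12 6 h, 521 ± 153 in DMSO 6 h, 588 ± 36.0 in NSC12 12 h and 538 ± 77.3 in DMSO 12 h (SD, n = 3 each). DMSO 6 h replicate 3 and DMSO 12 h replicate 1 were the dimmest of their groups, and values without them are given where they change a call. Levels below are log2 of quantile-normalized intensity, and a gene was above background where a group mean exceeded 6.97, the 95th percentile of 371 olfactory receptor genes. All 9 plasma cell markers passed this level, with TNFRSF17 at 12.82, XBP1 at 13.13 and JCHAIN at 14.01, although CD38 (6.97) and SLAMF7 (7.11) barely did; FGFR3, driven by the translocation, stood at 13.90. With NSC12, 1 of the 9 was called higher and 2 lower at 6 h, and 5 lower and none higher at 12 h. That is 33.3% of them at 6 h and 55.6% at 12 h, beside 20.4% and 45.3% of all genes above background. The largest changes at 12 h were those of PRDM1 (-0.98), SDC1 (-0.49), IRF4 (-0.40) and XBP1 (-0.39), regulators and a surface proteoglycan of plasma cells; with probes averaged PRDM1 and SDC1 did not pass (-0.13 and -0.09, adjusted p = 0.244 and 0.266), and with median centring IRF4 and XBP1 did not (-0.38 and -0.12, adjusted p = 0.138 and 0.714). Their summed intensity per array was 40085 to 42409 in NSC12 6 h against 42813 to 43701 in DMSO 6 h, and 40430 to 43492 in NSC12 12 h against 47158 to 49097 in DMSO 12 h, so the groups did not overlap. CCND2, a cyclin this translocation group often expresses, fell by 0.79 at 12 h while FGFR3 changed by 0.01 (adjusted p = 0.959), and the sum of both was 21616 to 23134 in NSC12 12 h against 27111 to 28215 in DMSO 12 h. Of 6 T and NK cell markers 2 passed, CD2 the higher at 7.09, and their summed intensity per array was 688 to 731 in NSC12 12 h against 692 to 729.8 in DMSO 12 h. Of 6 myeloid markers 5 passed, all at or below 7.23, with sums of 769.9 to 845 in NSC12 12 h against 768 to 801 in DMSO 12 h, and FCGR3A was called higher at 12 h (0.30, adjusted p = 0.0351). The part of these markers in the results was not tested. Each value is bulk RNA, in which fewer cells of a type and less RNA per cell cannot be told apart.

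With NSC12, H2AJ and H1-10 were higher at both times. H2AX, H3-3B and H2AZ1 were lower at 12 h, and H2AZ1 slightly lower at 6 h. H3-3A passed the test on its less bright probes but not on its brightest, and neither H2AZ2 nor MACROH2A1 passed the test at either time. A change was called at an adjusted p under 0.05 in limma, which called 13.1% of all genes at 6 h (5.56% higher, 7.51% lower) and 28.9% at 12 h (13.6% higher, 15.2% lower). Against that background, 2 variants were higher and 1 lower at 6 h, and 2 higher and 3 lower at 12 h, where 5 of the 9 plasma cell markers were lower too. All 8 were above background in every group, and of the genes above background 20.4% were called at 6 h and 45.3% at 12 h. The variants' median change was -0.12 at 6 h and -0.07 at 12 h, beside -0.0015 and -0.0014 for all genes, and with arrays only centred on their medians the 12 h median was 0.01.

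**Figure D1:**
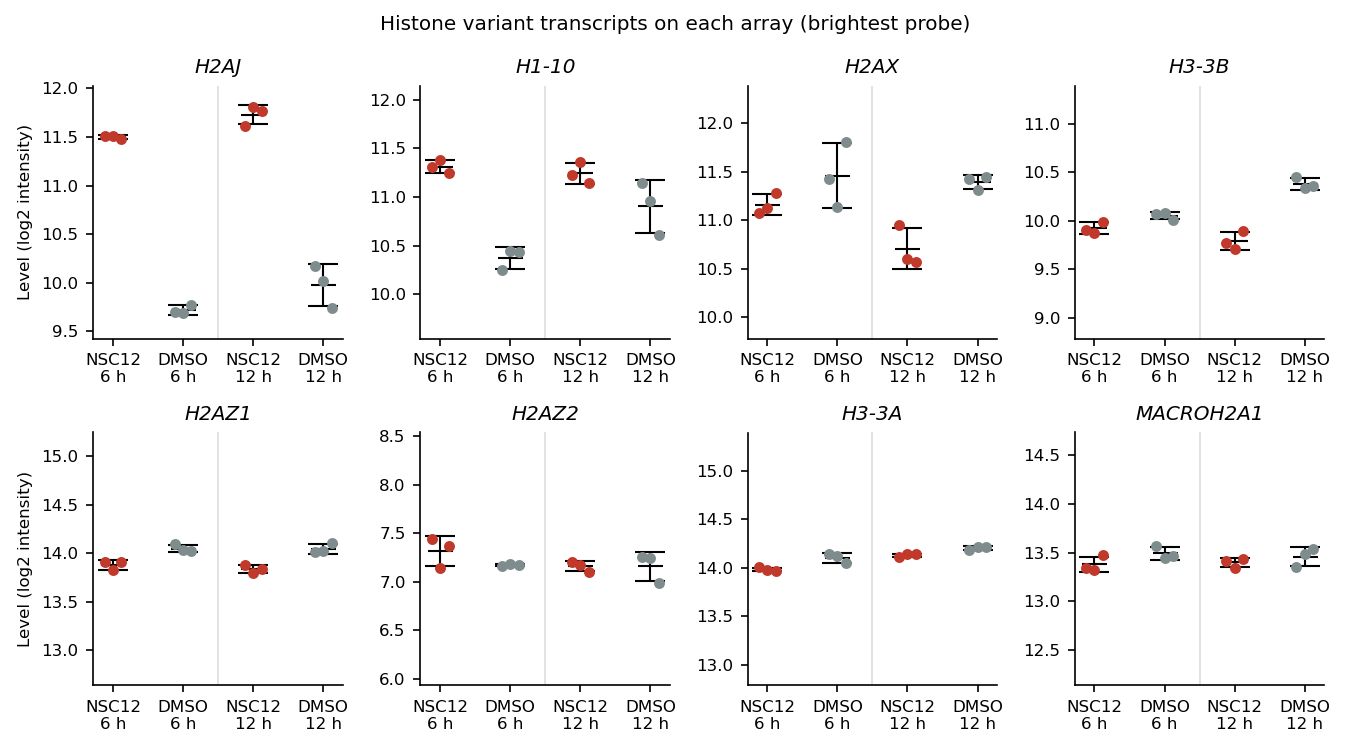
Level of each of the 8 variants (y axis, log2 quantile-normalized intensity, brightest probe) on each array (points), with the mean and SD of 3 arrays (bars), NSC12 in red and DMSO in grey at 6 h and 12 h; every panel spans the same number of log2 units. H2AJ stands near 11.50 and 11.73 with NSC12 against 9.72 and 9.98 with DMSO, while H2AX and H3-3B are lowest in NSC12 at 12 h.

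H2AJ, the H2A variant closest to canonical H2A, showed the largest change of the 8. Its deposited intensities were 2184, 1948 and 2698 in NSC12 6 h against 974, 1092 and 588 in DMSO 6 h, and 3707, 3957 and 4319 in NSC12 12 h against 1050.2, 1237 and 955 in DMSO 12 h. On the log2 scale its levels were 11.51, 11.51 and 11.48 in NSC12 6 h against 9.70, 9.68 and 9.77 in DMSO 6 h, and 11.62, 11.81 and 11.76 in NSC12 12 h against 10.17, 10.02 and 9.74 in DMSO 12 h. Every NSC12 array stood above every DMSO array, at both times. The log2 change was 1.78 ± 0.09 (SE) at 6 h, 3.43-fold, with an adjusted p of 1.55e-12, and 1.75 ± 0.09 at 12 h, 3.37-fold, with an adjusted p of 1.56e-12. By size of change it ranked 44 of the 20045 genes at 6 h and 56 at 12 h. The effect at 12 h minus that at 6 h was -0.03 (95% interval -0.29 to 0.23), an interval that spans 0. Within NSC12, 12 h stood 0.23 above 6 h with arrays that did not overlap but an adjusted p of 0.0673. That comparison passed the test in 9 of 22 alternatives. Among them were cyclic loess (0.33, adjusted p = 0.00866) and median centring (0.57, 0.0225). It also passed without DMSO 12 h replicate 1 (0.23, 0.0330) and with both dimmest DMSO arrays left out (0.23, 0.0289). Within DMSO, 12 h stood 0.26 above 6 h with overlapping arrays and an adjusted p of 0.262. That value passed only without DMSO 12 h replicate 3 (0.38, 0.0258).

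H1-10, the linker histone, was higher with NSC12 at 6 h and much less so at 12 h. Its levels were 11.31, 11.38 and 11.24 in NSC12 6 h against 10.24, 10.44 and 10.44 in DMSO 6 h. They were 11.23, 11.36 and 11.15 in NSC12 12 h against 11.14, 10.96 and 10.61 in DMSO 12 h. The groups were far apart at 6 h and touched at 12 h, where the highest DMSO array lay just under the lowest NSC12 array. The change was 0.94 ± 0.10 at 6 h (1.92-fold, adjusted p = 8.47e-07) and 0.34 ± 0.10 at 12 h (1.27-fold, adjusted p = 0.0135). At 12 h it was 0.19 without DMSO 12 h replicate 3 (adjusted p = 0.120), and the call was also lost without NSC12 12 h replicate 2 (0.28, adjusted p = 0.0811) and with median centring (0.40, adjusted p = 0.117).

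The effect of NSC12 on H1-10 at 12 h minus that at 6 h was -0.60 ± 0.14 (adjusted p = 0.00877), in a comparison that called 10.4% of all genes (4.65% higher, 5.77% lower) and 2 of the variants, both lower. NSC12 arrays stood alike at both times (12 h minus 6 h -0.07, adjusted p = 0.731), whereas the DMSO arrays at 12 h were 0.53 above those at 6 h (adjusted p = 0.0220). Only 0.399% of genes were called between the DMSO groups (0.249% higher, 0.15% lower), and H1-10 ranked 20 by size of change there. That DMSO call was lost in 8 of 22 alternatives, among them leaving out any 1 array of DMSO 6 h, DMSO 12 h replicate 1 or DMSO 12 h replicate 2, both dimmest DMSO arrays together (0.44, adjusted p = 0.115), and median centring (adjusted p = 0.513), which also ended the difference between times (-0.37, adjusted p = 0.613).

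H2AX, the variant phosphorylated at DNA breaks, was lower with NSC12 at 12 h. Its levels were 10.96, 10.61 and 10.57 in NSC12 12 h against 11.43, 11.31 and 11.44 in DMSO 12 h. They were 11.08, 11.13 and 11.28 in NSC12 6 h against 11.43, 11.14 and 11.80 in DMSO 6 h. All NSC12 arrays at 12 h were below all others of the gene, while at 6 h the groups overlapped and DMSO replicate 3, a dim array, was the highest of all 12. The change was -0.68 ± 0.12 at 12 h (0.622-fold, adjusted p = 0.000118). At 6 h it was -0.30 ± 0.12 (adjusted p = 0.129), which passed the test without DMSO 6 h replicate 2 (-0.46, adjusted p = 0.0119) and with array brightness as a covariate (-0.40, adjusted p = 0.0215).

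Within NSC12, H2AX at 12 h differed from 6 h by -0.45 ± 0.12 (adjusted p = 0.00876), whereas between the DMSO groups the difference was -0.06 (adjusted p = 0.931). The comparison within NSC12 called 22.4% of all genes (11% higher, 11.4% lower) and, of the variants, 1 higher and 1 lower; 5 of 22 alternatives lost the call for H2AX, among them median centring (-0.22, adjusted p = 0.513), the brightness covariate (-0.25, adjusted p = 0.224) and leaving out replicate 3 of NSC12 at 6 h or either of replicates 2 and 3 at 12 h. The effect at 12 h minus that at 6 h was -0.39 ± 0.17 and did not pass the test (adjusted p = 0.182). It did without DMSO 6 h replicate 3 (-0.56, adjusted p = 0.0154) and with both of the dimmest DMSO arrays left out (-0.55, adjusted p = 0.0194).

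H2AZ1, 1 of the 2 genes for H2A.Z, was slightly lower with NSC12. Its levels were 13.91, 13.82 and 13.91 in NSC12 6 h against 14.09, 14.03 and 14.02 in DMSO 6 h, and 13.88, 13.79 and 13.84 in NSC12 12 h against 14.01, 14.02 and 14.11 in DMSO 12 h. No NSC12 array reached a DMSO array of the same time. The change was -0.21 ± 0.05 at 12 h (0.865-fold, adjusted p = 0.00347), lost only with median centring among 22 alternatives (-0.05, adjusted p = 0.869). At 6 h it was -0.17 ± 0.05 (adjusted p = 0.0372), and 11 of 22 alternatives ended the call, including leaving out any 1 array of NSC12 6 h or DMSO 6 h. The probe lies near the top of the scale, where changes may be compressed, which was not tested.

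H2AZ2, the other gene for H2A.Z, was measured by a dim probe. Its levels were 7.43, 7.14 and 7.36 in NSC12 6 h against 7.16, 7.18 and 7.18 in DMSO 6 h, and 7.21, 7.17 and 7.10 in NSC12 12 h against 7.25, 7.24 and 6.99 in DMSO 12 h. The groups overlapped at both times. The change was 0.14 (95% interval -0.03 to 0.31, adjusted p = 0.348) at 6 h and 0.00 (-0.17 to 0.17, adjusted p = 0.998) at 12 h. None of 22 alternatives called it at either time. The intensities appear to keep an additive background, which would understate any change of such a dim probe.

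MACROH2A1 had 4 probes, and none passed the test at either time when all probes were fitted. The brightest stood at 13.34, 13.32 and 13.47 in NSC12 6 h against 13.57, 13.45 and 13.47 in DMSO 6 h, and at 13.42, 13.35 and 13.43 in NSC12 12 h against 13.36, 13.48 and 13.54 in DMSO 12 h, with overlap at both times. Its change was -0.12 (95% interval -0.25 to 0.01, adjusted p = 0.267) at 6 h and -0.06 (-0.19 to 0.07, adjusted p = 0.565) at 12 h. This probe, like that of H2AZ1, reads high on the scale and could understate a change, a point left untested. The other 3 probes changed by between -0.04 and 0.31 at 6 h and between -0.05 and 0.20 at 12 h. The value of 0.31 had an adjusted p of 0.0573 over all probes, and the dimmest probe, at 6.83, lay below background in every group.

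H3-3B, 1 of the 2 genes for H3.3, was lower with NSC12 at 12 h. Its levels were 9.78, 9.72 and 9.90 in NSC12 12 h against 10.45, 10.34 and 10.36 in DMSO 12 h. They were 9.91, 9.87 and 9.99 in NSC12 6 h against 10.07, 10.08 and 10.01 in DMSO 6 h. NSC12 arrays were below DMSO arrays at both times, narrowly at 6 h and by a wide margin at 12 h. The change was -0.59 ± 0.07 at 12 h (0.666-fold, adjusted p = 1.81e-06) and -0.13 (95% interval -0.28 to 0.03, adjusted p = 0.324) at 6 h. The difference between the times was -0.46 ± 0.10 (adjusted p = 0.00604), a call lost among the alternatives with median centring alone (-0.37, adjusted p = 0.592). The level at 12 h minus that at 6 h was -0.13 in NSC12 (adjusted p = 0.261) and 0.33 in DMSO (adjusted p = 0.0525), neither past the test. The DMSO value passed with probes averaged per gene (adjusted p = 0.0485), without an intensity trend (0.0285), and when dim genes were left out of the fit (0.0414).

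H3-3A, the other gene for H3.3, had 3 bright probes that differed in size of change. The brightest stood at 14.01, 13.98 and 13.97 in NSC12 6 h against 14.14, 14.12 and 14.05 in DMSO 6 h, and at 14.12, 14.14 and 14.14 in NSC12 12 h against 14.18, 14.22 and 14.21 in DMSO 12 h. The least bright stood at 13.47, 13.44 and 13.50 in NSC12 6 h against 13.82, 13.94 and 13.85 in DMSO 6 h, and at 13.42, 13.48 and 13.60 in NSC12 12 h against 13.90, 13.97 and 13.85 in DMSO 12 h. All 3 probes read lower with NSC12 at both times without overlap, but by unequal amounts. Over all probes the brightest changed by -0.12 at 6 h and -0.07 at 12 h (adjusted p = 0.164 and 0.394), the next by -0.30 and -0.17 (0.000774 and 0.0327), and the least bright by -0.40 and -0.41 (3.80e-05 and 8.09e-06). By the brightest probe the gene did not pass the test at 6 h (adjusted p = 0.128) or 12 h (0.331), whereas the mean of the probes did (-0.27, adjusted p = 0.000194 at 6 h; -0.22, 0.000473 at 12 h), as did the brightest probe with cyclic loess at 12 h (-0.20, 0.0103). Within NSC12 the brightest probe was 0.15 higher at 12 h than at 6 h (adjusted p = 0.0317), a call that 10 of 22 alternatives ended. Against DMSO, the brighter the probe, the smaller its change at both times (mean levels 14.11, 13.89 and 13.69). The brightest reads even higher than the H2AZ1 probe, so it could understate a fall with NSC12. Its missing calls are therefore no measure of little change, and the effect of level was not tested.

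**Figure D2:**
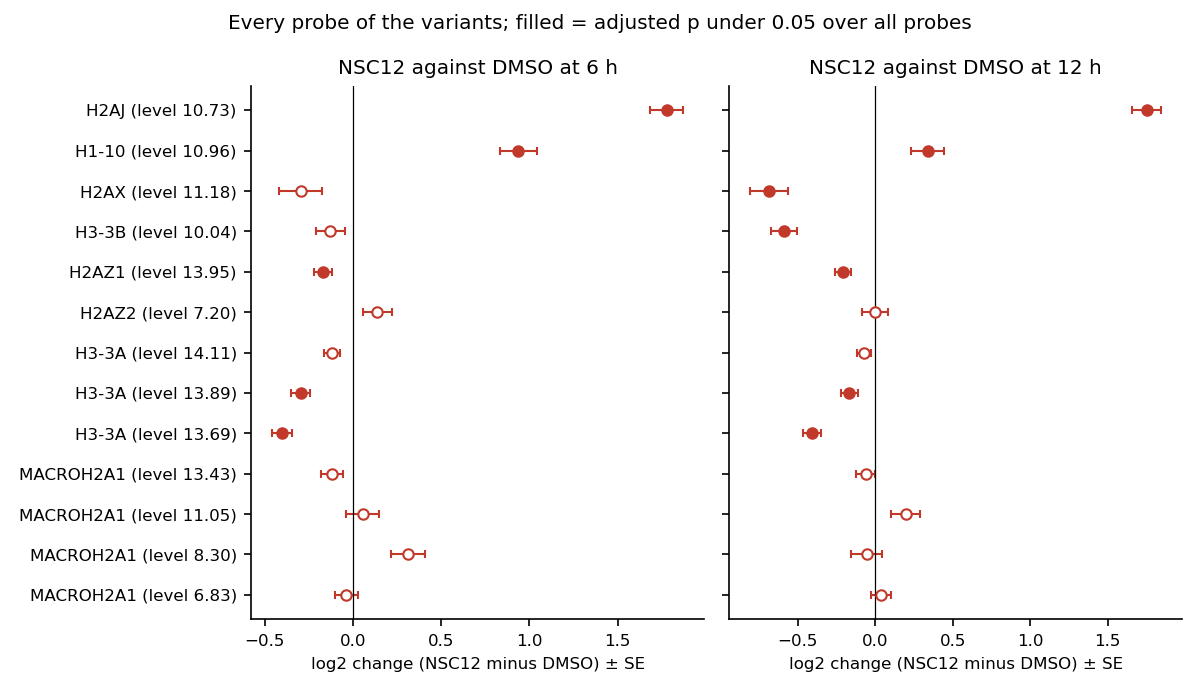
Log2 change with NSC12 against DMSO (x axis, ± SE of the fit) for each of the 13 probes of the 8 genes (y axis, with each probe's mean log2 level) at 6 h and at 12 h; filled points passed the test over all 47319 probes. At 12 h 2 probes are higher (H2AJ, H1-10) and 5 lower (H2AX, H3-3B, H2AZ1 and the less bright pair of H3-3A).

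With every probe as a feature, 2 of the 13 were higher and 3 lower at 6 h, where 7.15% of all probes were called, and 2 higher and 5 lower at 12 h, where 18.4% were. For the difference between times 2 probes were lower (5.78% of all probes called), within NSC12 2 were higher and 1 lower (14.9%), and between the DMSO groups none passed (0.0888%). Counted by overlap of the arrays, 2 variants stood above and 3 below DMSO at 6 h, where 27.9% of genes did not overlap (12.9% above, 15% below), and 2 above and 4 below at 12 h, where 38.2% did not (18.1% above, 20% below). Between the DMSO groups 3 variants stood higher at 12 h without overlap (H1-10, H3-3A and H3-3B), where 14.9% of genes did not overlap, 7.58% above and 7.34% below. Within NSC12, 2 stood higher (H2AJ and H3-3A) and 1 lower (H2AX), where 35.4% did not overlap, 17.9% above and 17.5% below. Probe sequences were not used here, so how far a probe separates H2AJ from other H2A genes, or H3-3B from H3-5, a gene of very similar sequence, was not tested.

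The replication-dependent histone genes, whose messages end without a poly(A) tail, are set beside these values. How far the arrays read messages without a tail was not tested. More message and more of it carrying a tail cannot be told apart here. Of 68 measured, 40 were higher and 1 lower at 6 h, and 43 higher and 2 lower at 12 h, with a median change of 0.40 and 0.47; the list was known to rise in these data. H3C4 changed by 2.32 and 3.07, H2BC7 by 2.54 and 2.14, H3C7 by 1.53 and 2.00 and H2AC20 by 1.95 and 1.88, at 6 h and 12 h, all past the test. H2BC7 was above the background level of 6.97 with NSC12 only, at 6.89 in either DMSO group. H3C4 stood little above that level in DMSO (7.10 at 6 h and 7.18 at 12 h). The 2 lower genes, named after their values were seen, were H2AC11 (-0.28 at 6 h and -0.49 at 12 h) and H2BC21 (-0.61 at 12 h). Set among the 68, the change of H2AJ was exceeded by 6 genes at 6 h and 5 at 12 h, and that of H1-10 by 20 and 40. The change of H2AX was below that of all 68 at both times, and that of H3-3B below all but 1. This was not particular to them. H2AZ1, H3-3A and MACROH2A1 were also below all but 1 at 6 h, and below 66, 63 and 63 of the 68 at 12 h. At 6 h neither H2AX nor H3-3B was called, and the lowest of the 68 changed by -0.28, close to the -0.30 of H2AX.

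Factors that handle the variants were called in shares to be read against all genes above background, of which 20.4% were called at 6 h and 45.3% at 12 h. Among 7 genes for H3.3 deposition, 2 fell at each time and none rose: UBN1, a HIRA complex subunit (-0.32 at 6 h and -0.92 at 12 h), and UBN2, its paralog (-0.40 and -0.21). HIRA, CABIN1, ASF1A, DAXX and ATRX did not pass the test. Of the 6 above background, 33.3% were called at each time, a share below that of all such genes at 12 h. The list's median change was -0.03 at both times; with median centring it was -0.15 at 6 h and -0.14 at 12 h, with 1 gene lower at each time, and UBN2 at 12 h did not pass (-0.31, adjusted p = 0.0553). At 6 h the UBN1 call was lost without replicate 2 of NSC12 (-0.27, adjusted p = 0.137), replicate 3 of NSC12 (-0.31, 0.0859) or replicate 3 of DMSO (-0.21, 0.189), with both of the dimmest DMSO arrays left out (-0.21, 0.135), with median centring (-0.47, 0.113) and with probes averaged (-0.26, 0.110). With probes averaged UBN1 changed by -0.48 at 12 h (adjusted p = 0.00141). UBN2 at 12 h did not pass when any 1 array of NSC12 12 h or DMSO 12 h was left out (adjusted p = 0.0514 to 0.168).

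Among 19 genes for H2A.Z exchange, 6 rose and 2 fell at 6 h, and 6 rose and 3 fell at 12 h, with medians of 0.07 and 0.02. Of the 17 above background 47.1% were called at 6 h and 52.9% at 12 h, the second near the share of all such genes. ING3, a subunit of the NuA4 acetyltransferase, changed by 0.67 and 1.00 and EPC1, another, by 0.40 and 0.60. EP400, the ATPase that exchanges H2A.Z, changed by -0.51 and -0.84, and TRRAP, the scaffold of the complex, by -0.29 and -0.63. With median centring the counts were 0 higher and 1 lower at 6 h and 4 higher and 2 lower at 12 h, and the 6 h call of EPC1 was also lost when replicate 2 or replicate 3 of DMSO was left out (adjusted p = 0.0552 and 0.0643).

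Among 13 genes for H2AX phosphorylation and its readers, 3 rose and 2 fell at 6 h, and 2 rose and 6 fell at 12 h, with medians of 0.08 and -0.13. All 13 were above background, and 38.5% were called at 6 h and 61.5% at 12 h. The kinases ATM (-0.43 and -0.64) and PRKDC (-0.39 and -0.65) fell at both times. The phosphatases EYA3 (0.77 and 1.18) and PPM1D (0.56 and 0.55), both known to act on H2AX, rose at both times. With median centring PPM1D did not pass at 6 h (0.38, adjusted p = 0.176) and the medians were -0.08 at 6 h and -0.22 at 12 h.

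Among 13 general histone chaperones, 4 fell and none rose at 6 h, and 5 fell and 1 rose at 12 h, with medians of -0.09 and -0.15 (-0.24 and -0.10 with median centring). Of the 12 above background 33.3% were called at 6 h and 50% at 12 h, the second near the share of all such genes. SUPT16H, a subunit of FACT, changed by -0.89 and -0.76, NAP1L4 by -0.47 and -0.93, and CHAF1A, a subunit of the replication-coupled assembly factor, by -0.05 (adjusted p = 0.796) and -0.43. RBBP4 changed by -0.74 and -0.85 by its brightest probe, but by -0.07 at 12 h with its probes averaged (adjusted p = 0.493). Of 9 other replication-independent variants only 2 were above background: CENPA, the centromeric H3, changed by -0.21 at 6 h (adjusted p = 0.0710) and fell by 0.57 at 12 h, and H3-5 changed by 0.39 at 6 h (adjusted p = 0.000594, but 0.524 with median centring) and 0.09 at 12 h (adjusted p = 0.461).

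**Figure D3:**
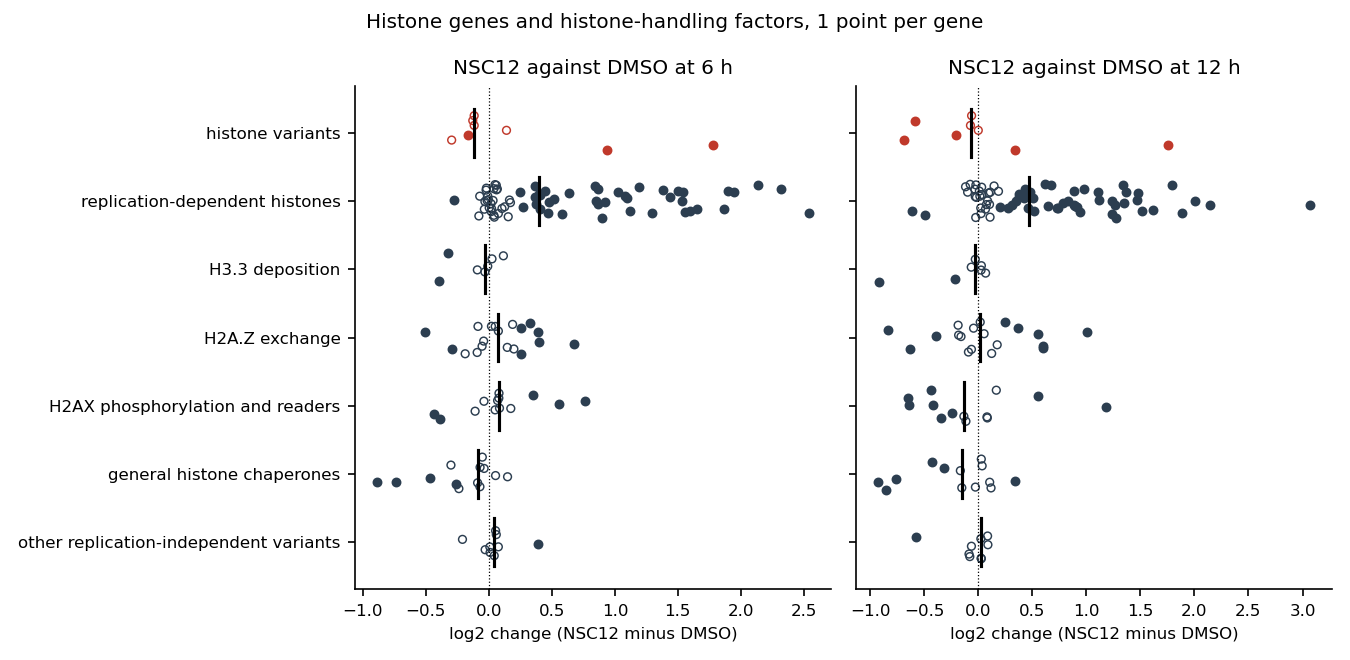
Log2 change with NSC12 against DMSO (x axis) at 6 h and 12 h for every measured gene of each list (1 point per gene, filled where the adjusted p was under 0.05; vertical bars are list medians); points are spread vertically only to be seen. The 8 variants, in red, straddle 0, while 43 of 68 replication-dependent genes are filled to the right at 12 h.

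The genes whose pattern over the 12 arrays was most like that of each variant were found by the root mean square difference of log2 levels, each gene centred on its own mean, among 12633 genes above background. For H2AJ they were H2AC20 (0.095), H3C7 (0.155), both replication-dependent histone genes, and DDIT3 (0.171), a transcription factor of the unfolded protein response. For H1-10 they were KCNQ1, a potassium channel gene (0.161), TNFSF9, a costimulatory ligand (0.182), and SLC3A2, an amino acid transporter subunit (0.188). These 3, picked for likeness on the same arrays, were higher with NSC12 at both times by 0.63 to 0.84. Their effects at 12 h minus those at 6 h did not pass the test, unlike the -0.60 of H1-10. They were -0.16 for KCNQ1, -0.07 for TNFSF9 and 0.06 for SLC3A2 (adjusted p = 0.489, 0.828 and 0.840).

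For H2AX the nearest were ABCF2 (0.0995), OR5W2 (0.113) and PPP1CA, a catalytic subunit of protein phosphatase (0.120). They changed by -0.62 to -0.71 at 12 h, and, like H2AX, read highest on DMSO 6 h replicate 3, a dim array. OR5W2 is an olfactory receptor gene that stood at a mean of 9.17, well above the background level. For H3-3B the nearest were VGLL4, a cofactor of TEAD proteins (0.0586), PINK1, a mitochondrial kinase (0.0755), and GJB2, a gap junction protein (0.0801), which changed by -0.48 to -0.54 at 12 h.

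The other variants varied little, and their nearest genes differed by 0.0337 to 0.0701. They were MYH11, GGCX and CPLANE2 for H2AZ1, LSM3, RIIAD1 and LRRC8E for H2AZ2, TMEM26, DRD4 and ST3GAL6 for H3-3A, and EXPH5, FTL and KATNAL2 for MACROH2A1. Of the variants themselves, H2AZ1 and MACROH2A1 were nearest to each other (0.0685), whereas H2AJ and H1-10 differed by 0.586. All nearest genes were picked on these same 12 arrays, so their sharing a variant's change follows from the choice. The 12 arrays share cells, platform and normalization, so these distances are descriptions.

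**Figure D4:**
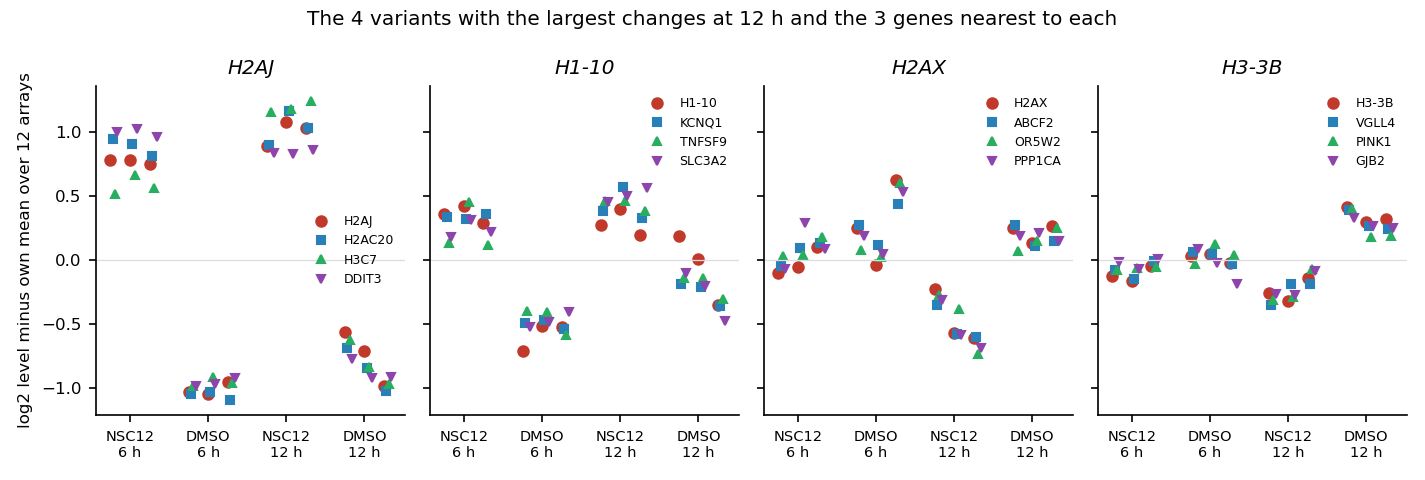
Log2 level minus the gene's own mean over 12 arrays (y axis) on each array (points, by group along the x axis) for the 4 variants with the largest changes at 12 h by their brightest probes (red circles) and the 3 genes nearest to each. H2AJ and its 3 neighbours lie above 0 on every NSC12 array and below 0 on every DMSO array, while H2AX and its neighbours are lowest in NSC12 at 12 h.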

How the data were processed

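The authors deposited 1 table of linear probe intensities (69.5 to 25534) for 12 Illumina arrays; biotinylated cRNA was made with an Ambion MessageAmp kit, per the labels' protocols. The sources used here name no scanner software, background correction or normalization. Array medians were 104, 104 and 116 in NSC12 6 h and 131, 137 and 101 in DMSO 6 h. They were 132, 121 and 133 in NSC12 12 h and 108, 137 and 129.6 in DMSO 12 h. The scale was therefore taken as linear, uncentred and unnormalized. No array minimum was below 69.5, so an additive background appears to be left, which would understate changes of dim genes. Replicate arrays of a group correlated at 0.992 to 0.996 over all probes, no pair of arrays was identical, and all columns were mapped to samples. The number of arrays limits the precision.

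Of 47319 probes, 30111 had 1 gene symbol, 8 several and 17200 none listed; 30072 were updated by Entrez identifier to RefSeq symbols. Each of 20045 genes was represented by the probe of highest mean. Values were floored at 16 (none lay below), quantile normalized and taken to log2. In limma 3.58.1 (R 4.3.3), the 4 group means were fitted over all 12 arrays, variances were moderated along intensity, and Benjamini-Hochberg adjustment ran over all genes, at 0.05; a second fit took every probe as a feature. Intervals are 95%, from the fit. Contrasts were NSC12 against DMSO at each time, their difference, and 12 h against 6 h within each agent.

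The members, gene lists and tests were chosen with earlier results of these data known. The 8 variants are named whatever their values, and 1 further gene of the selection rule is not reported here. Each list adds up to 4 genes above background with the largest change at 12 h among those called at 6 h or 12 h, and each variant the 3 genes nearest to it; H2AC11, H2BC21, markers given for their level (TNFRSF17, JCHAIN, CD38, SLAMF7 and FGFR3) and genes listed as not passing are named besides, chosen after their values were seen. Taken over all groups, replicate numbers showed no clear pairing of the arrays. Deviations from group means correlated at -0.465 to 0.175 (median 0.0334) over 18 pairs of equal number and at -0.193 to 0.440 (median -0.00956) over 36 of unequal number. Between NSC12 and DMSO at 6 h, though, pairs of equal number correlated at 0.0797, 0.0776 and 0.0858, and those of unequal number at -0.0967 to 0.00837. A weak pairing at 6 h is therefore possible.

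Simulated data for the 12 h comparison, with 50 of 20045 genes changed at each size, gave calls for 38% of changes of 0.3 (log2), 90% of 0.6, 100% of 1 and 98% of 2, and for 3 unchanged genes. Noise was drawn independently for each probe, and genes as bright as H2AZ1, H3-3A and MACROH2A1 were not among those changed. Far fewer genes were changed than the 5784 called at 12 h in the data. The rates therefore hold for that setting and are not the sensitivity of the real comparison. Figures were drawn with matplotlib 3.10.9. The alternatives tried were median centring, cyclic loess, normexp correction with an offset of 50, probes averaged per gene, genes above background, array brightness as a covariate, no intensity trend, the groups compared alone, the replicate block, each array left out in turn, and, added after the data were seen, the dimmest array of each DMSO group left out.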

Additional observations from a re-analysis of the deposited data

Results flagged for a closer look

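For 2 variants the effect of NSC12 differed between the times by the test of the difference itself. For H1-10 the effect at 12 h minus that at 6 h was -0.60 (log2, adjusted p = 0.00877 in limma): the group means were 11.31 ± 0.07 in NSC12 6 h against 10.37 ± 0.11 in DMSO 6 h, and 11.24 ± 0.10 in NSC12 12 h against 10.90 ± 0.27 in DMSO 12 h (SD, n = 3 each). For H3-3B it was -0.46 (adjusted p = 0.00604): the means were 9.92 ± 0.06 in NSC12 6 h against 10.05 ± 0.04 in DMSO 6 h, and 9.80 ± 0.09 in NSC12 12 h against 10.38 ± 0.06 in DMSO 12 h. In both genes the DMSO mean at 12 h was above that at 6 h, by 0.53 in H1-10 and by 0.33 in H3-3B, and neither difference passed with median centring. Causes were not tested.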

How the results depend on the processing

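Over 22 alternatives, the NSC12 effects on H2AJ at both times, on H1-10 at 6 h and on H2AX and H3-3B at 12 h stayed past the threshold in the same direction in every one (H2AJ 1.58 to 1.84 at 6 h and 1.64 to 1.86 at 12 h, H1-10 at 6 h 0.77 to 0.98, H2AX at 12 h -0.80 to -0.61, H3-3B at 12 h -0.65 to -0.54). Among 872 values of the variants under an alternative, none that was called changed sign, 40 calls were lost and 20 gained, and 40 values called in neither fit changed sign (none above 0.26 in size). The replicate block changed no count of variants: it left 2 higher and 1 lower at 6 h, 2 higher and 3 lower at 12 h, and 2504, 5695, 1992, 4320 and 54 genes called at 6 h, at 12 h, for the difference, within NSC12 and within DMSO, against 2619, 5784, 2089, 4490 and 80.

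Median centring, which leaves differences in the spread of arrays in place, called 1469 genes at 6 h (18.7% higher, against 42.5%), 4089 at 12 h (36.3% against 47.3%), 363 for the difference (76.3% against 44.7%), 2511 within NSC12 (72.4% against 49.1%) and 14 within DMSO (92.9% against 62.5%; 76.5% with cyclic loess). It called 0 variants lower at 6 h, 1 higher at 12 h, 0 lower for the difference and within NSC12, and 0 higher within DMSO. At 6 h variants lower numbered 2 with probes averaged, and 0 without the intensity trend and without the dimmest DMSO arrays. Within NSC12, the brightness covariate gave 0 lower, and variants higher numbered 2 without the dimmest DMSO arrays and among genes above background, and 0 without the trend. Within DMSO, variants higher numbered 2 with probes averaged, among genes above background and without the trend, and 0 with the groups compared alone (15 genes called) and without the dimmest arrays (39 genes). Leaving out 1 array at a time gave 1986 to 2902 genes at 6 h with 0 to 1 variants lower, 1 to 2 variants higher at 12 h (5109 to 5880 genes), 1545 to 2158 genes for the difference, 0 to 2 variants higher and 0 to 1 lower within NSC12 (3564 to 4732 genes), and 21 to 124 genes and 0 to 2 variants higher within DMSO. At an unadjusted p under 0.05, 4746, 7132, 4355, 6197 and 2021 genes passed in these 5 comparisons. The cause of each change was not tested; the groups compared alone give no separate value for the difference.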
